A study of Rattus norvegicus with 24 samples.

Results

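The comparison of dorsal root ganglion (DRG) neurons 7 days after spared nerve crush (SNC) with neurons of sham-operated rats was restricted to the libraries reverse-transcribed in 2019, by the study's table of dates. Neurons were kept when they had at least 500 genes, at least 1000 unique molecular identifiers (UMIs, each marking 1 captured mRNA molecule) and less than 5% of UMIs from the 13 genes named Mt-. The counts of the neurons that passed were then summed per DRG sample. Of 312 neurons, 311 passed, beside 1433 that passed in the whole series. They filled 7 of the 24 sequencing libraries and came from 6 of the 16 labelled DRG samples. The sham side held samples Xin, 4 and 10 with 24, 48 and 47 neurons, and the SNC 7 d side held samples S, 8 and 9 with 96, 48 and 48 neurons. Sample S filled 2 libraries, which were summed.

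All groups were male Sprague-Dawley (SD) rats, and the tissue was the L4 and L5 DRG of the operated left side. In the SNC 7 d group the tibial and common peroneal branches of the sciatic nerve had been crushed with forceps and the sural branch left whole, while in the sham group the nerve was only exposed. The labels give no time after surgery for sham. In both groups the nerve branches had been injected with dyes, and single dye-carrying neurons were drawn into a mouth pipette after dissociation. By the labels, each of these libraries held as many directly as indirectly injured neurons (24 and 24, or 12 and 12 in Xin), a wording the labels also use for sham. The cell names carry no dye, so both kinds are pooled in every value below, and a summed level cannot by itself tell more neurons with a transcript from more transcript per neuron. Nothing in the labels says whether a DRG sample is 1 rat.

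Sensory neurons whose peripheral axon is injured are known to switch on a growth programme. Transcription factors such as Atf3, Jun and Sox11 rise, and with them come growth cone proteins such as Gap43 and Sprr1a, the neuropeptide galanin, and signals to other cells such as Csf1. Many ion channels and peptides of the uninjured state are known to be turned down at the same time. This comparison asks how far that programme separates the neurons of crushed from those of sham-operated rats within 1 year of library making.

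The summed depth ran from 4002503 UMIs in Xin to 28975829 UMIs in S, and the median neuron held 170621 to 283648 UMIs and 8426.5 to 9282.5 genes in the 6 samples. Median UMIs, genes and mitochondrial share per neuron did not separate the groups (exact two-sided permutation tests of 3 against 3 samples, p = 0.4, 0.3 and 0.6, where 0.1 is the smallest p possible). The neuronal genes fixed as a label check were present in every sample, with Tubb3 at 2244 to 3773 and Uchl1 at 2058 to 3264 CPM (a gene's UMIs relative to the TMM-normalized total of its sample, the scale of all levels below). Sham sample Xin stood apart from the other 5 samples. Its satellite glia markers summed to 1354 CPM, against 235 to 307 CPM in the others, and 8 of its 24 neurons were among the tenth of all neurons richest in glial markers. Apoe, a lipid carrier of satellite glia, was at 818 CPM in Xin and at 86.9 to 116 CPM elsewhere. Xin also had the highest level of the 6 samples for 31.8% of all genes tested and the lowest for 35.6%. Pearson's r of log2 CPM over the 13204 genes tested was 0.920 and 0.947 between Xin and the other sham samples and 0.928 to 0.953 between Xin and the SNC samples. It was 0.970 between samples 4 and 10, and 0.968 to 0.981 between these and the SNC samples. Low values were thus particular to Xin, while being as close to SNC as to sham samples was not. The highest r of Xin, 0.953, was with S. By the study's dates, Xin and S were sequenced on 2019.12.02 and samples 4, 8, 9 and 10 on 2021.01.18. What the sequencing date contributes to the distance of Xin was not tested. Values without Xin are therefore given for most list medians and for many of the named genes, and what its glial level contributes to them was not tested. The sham label of Xin was taken as given. For Gsta4, Nmb and Cd53, described further on, Xin lay within or nearer to the SNC samples than to the other sham samples, and its injury genes were mostly above their levels. Nmb and Cd53 were picked after their values were seen. Over all 13204 genes tested, Xin lay within the range of the SNC samples for 3062 (23.2%) and sample 10 for 6511. Whether the sham label of Xin is right was not tested, and the sham means depend on it.

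Neither group of 3 samples was separated from the other by any gene at an adjusted p of 0.05 in edgeR's quasi-likelihood test. Of 13204 genes tested, 0 were called (0% of the background), with a lowest adjusted p of 0.665, while 396 genes had an unadjusted p under 0.05 (3.00%), 233 of them higher and 163 lower in SNC 7 d (1.76% and 1.23%). In 622 genes (4.71%) all 3 SNC samples lay above all 3 sham samples, and in 576 genes (4.36%) they lay below. The median log2 fold change over all genes was -0.012. Without Xin, edgeR again called 0 of 13660 genes (0%), with a lowest adjusted p of 0.291 and 923 genes at an unadjusted p under 0.05 (6.76%). The DESeq2 alternative called 11 genes of the full comparison (0.0834%), described further on. Every gene in the paragraphs that follow is thus given by its values, and none of them passed in edgeR. The spread itself differed between the sides, since the standard deviation of log2 levels was larger in sham than in SNC 7 d for 9875 of 13204 genes (74.8%), with medians of 0.34 and 0.19.

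Atf3, the transcription factor most used as a mark of an injured sensory neuron, was abundant in all 6 samples. It was at 1064 CPM in Xin, 359.6 in sample 4 and 533 in sample 10, against 559.8, 623 and 639 CPM in S, 8 and 9. The 3 SNC values lay within the sham range, above samples 4 and 10 and below Xin. The group means were 607 ± 41.8 CPM in SNC 7 d and 652 ± 367 CPM in sham (SD, n = 3). The fitted log2 difference was -0.10 with a standard error of 0.35, a 95% interval of -0.91 to 0.71 and an edgeR adjusted p of 0.999, an interval that holds changes of either sign. Without Xin the log2 fold change of Atf3 was 0.45 (standard error 0.16, edgeR adjusted p = 0.669).

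Jun, which pairs with Atf3 on DNA, also had Xin highest and sample 4 lowest. It was at 835 CPM in Xin, 299 in sample 4 and 433 in sample 10, against 429, 428 and 496 CPM in S, 8 and 9. The log2 fold change was -0.21 with Xin and 0.30 without it. Sox11, a factor of neuronal development that is needed again for axon growth, was lower in abundance, at 20.7, 6.46 and 14.7 CPM in sham and 17.6, 16.2 and 15.8 CPM in SNC 7 d (log2 fold change 0.27, and 0.65 without Xin). Stat3, the factor downstream of gp130 cytokines, was at 519.6, 317 and 402 CPM in sham and 359.8, 373.5 and 391 CPM in SNC 7 d. Of the 12 regeneration transcription factors listed, 12 were tested, 4 had a log2 fold change above 0 and 8 below, 0 had an unadjusted p under 0.05, and 0 separated the groups without overlap. Over all genes 3.00% had such a p, and 4.71% lay higher and 4.36% lower without overlap, so a count of 0 among 12 genes says little. The median of the 12 factors was -0.029, and 0.23 without Xin, where 10 of 12 lay above 0. Xin was above all SNC samples for 9 of the 12 factors (36.2% of all genes) and sample 4 was below all of them for 10 (27.7% of all genes), so the 3 sham samples stood on both sides of the SNC samples.

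Proteins that carry out axon growth were listed as effectors. Gap43, a membrane protein of growth cones, was at 2288, 1358 and 1527 CPM in Xin, 4 and 10 and at 1376, 1531 and 1670.4 CPM in S, 8 and 9 (log2 fold change -0.18, and 0.084 without Xin). Sprr1a, a small proline-rich protein that is nearly absent from resting DRG neurons, was at 316, 64.6 and 165 CPM in sham and 168, 176 and 201 CPM in SNC 7 d. Its log2 fold change was 0.0091 with an interval of -1.09 to 1.10, and 0.66 without Xin. Ecel1, a membrane peptidase of damaged neurons, was at 251, 62.6 and 106 CPM in sham and 101.99, 82.1 and 116 CPM in SNC 7 d. Arg1, the arginase that feeds polyamine synthesis, ranged from 24.9 CPM in sample 4 to 199 CPM in Xin, and its 3 SNC values of 77.0, 97.9 and 108 CPM lay inside that range. Over the 20 effectors listed and tested, 5 had a log2 fold change above 0 and 15 below, with a median of -0.15, 0 at an unadjusted p under 0.05 and 0 without overlap. As 3.00% of all genes had such a p, and 4.71% lay higher and 4.36% lower without overlap, a count of 0 among 20 genes says little. Without Xin, 19 of 20 were above 0 with a median of 0.15, beside 49.6% above 0 over all genes. Xin was the highest of the 6 samples for 19 of the 20 genes and sample 4 the lowest for 15.

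**Figure D1:**
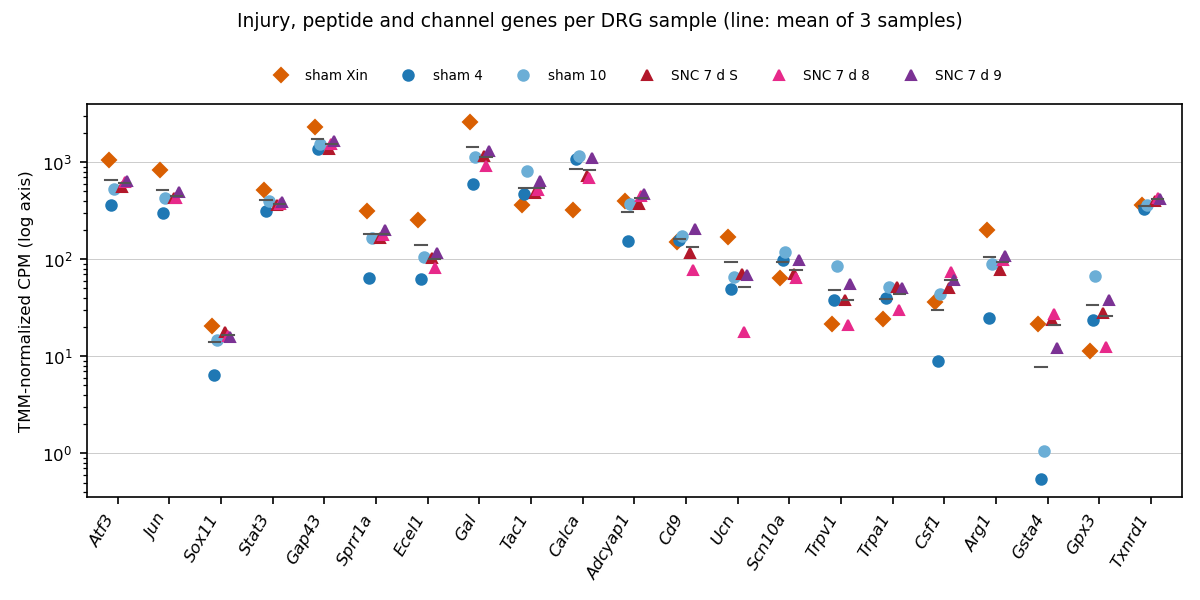
Levels of 21 named genes in the 6 DRG samples, as TMM-normalized CPM on a log axis, with sham samples on the left of each gene (Xin as diamonds, 4 and 10 as circles), SNC 7 d samples as triangles on the right, and short lines for the means of 3 samples. For Atf3, Jun, Gap43, Sprr1a and Gal the diamond lies above and sample 4 below all 3 triangles, while for Gsta4 samples 4 and 10 lie far below the other 4 samples. Npy, at 0 in all samples, is left out.

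Neurons with a transcript of the injury genes were also counted. Each neuron was thinned to 20000 UMIs, so that detection did not follow depth, and 9 sham and 9 SNC neurons with fewer UMIs were left out. An Atf3 UMI was then present in 22 of 22 neurons of Xin, 41 of 45 of sample 4 and 40 of 43 of sample 10, against 90 of 93, 45 of 45 and 45 of 45 neurons of S, 8 and 9. Nearly every neuron of both groups thus held Atf3, with 94.7% ± 4.68 in sham and 98.9% ± 1.86 in SNC 7 d (SD, n = 3 each, exact permutation p = 0.4). The median neuron of sample 4 held 282 CPM, with quartiles of 90.8 and 854 CPM, beside medians of 938 in Xin, 723 in sample 10 and 695 to 769.8 CPM in the SNC samples. The lower quartile was 256 CPM in sample 10, 857 CPM in Xin and 409 to 534 CPM in the SNC samples. Sprr1a was found in 20 of 22, 15 of 45 and 26 of 43 neurons of Xin, 4 and 10. In S, 8 and 9 it was found in 73 of 93, 34 of 45 and 33 of 45 neurons, and the shares averaged 61.6% ± 28.8 in sham and 75.8% ± 2.59 in SNC 7 d (SD, n = 3 each, exact permutation p = 0.5). Jun and Gap43 were found in 95.6% to 100% and 97.8% to 100% of the neurons of every sample. The shares of neurons with Sox11 were 45.5%, 8.89% and 20.9% in sham and 30.1%, 20.0% and 24.4% in SNC 7 d, and those with Ecel1 were 77.3%, 48.9% and 67.4% and 59.1%, 51.1% and 73.3%. With single samples of 22 to 93 neurons, the 95% Wilson interval of a share covers counting error only and was wide, for example 21.4% to 47.9% for Sprr1a in sample 4. None of the 10 genes counted in this way had an exact permutation p below 0.2. Only neurons were picked, so the level that free RNA would give in a cell without these transcripts was not measured here.

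Gsta4, a glutathione transferase that detoxifies lipid aldehydes, was the gene that set samples 4 and 10 most clearly apart. It was at 0.54 and 1.06 CPM in sham samples 4 and 10 (6 and 13 UMIs), at 21.5 CPM in Xin (77 UMIs), and at 23.5, 27.5 and 12.1 CPM in S, 8 and 9 (720, 349 and 152 UMIs). Xin thus lay among the SNC samples for this gene. The log2 fold change was 1.62 (standard error 1.17, edgeR adjusted p = 0.997), and 4.69 without Xin (standard error 0.52, edgeR adjusted p = 0.291), the lowest p of the fit without Xin. A Gsta4 UMI was found at 20000 UMIs per neuron in 5 of 22 neurons of Xin, 0 of 45 of sample 4 and 1 of 43 of sample 10, where 0 of 45 allows a share of up to 7.87% by the Wilson interval. In S, 8 and 9 it was found in 23 of 93, 17 of 45 and 5 of 45 neurons (24.5% ± 13.3 in SNC 7 d and 8.35% ± 12.5 in sham, SD, n = 3 each, exact permutation p = 0.2).

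**Figure D2:**
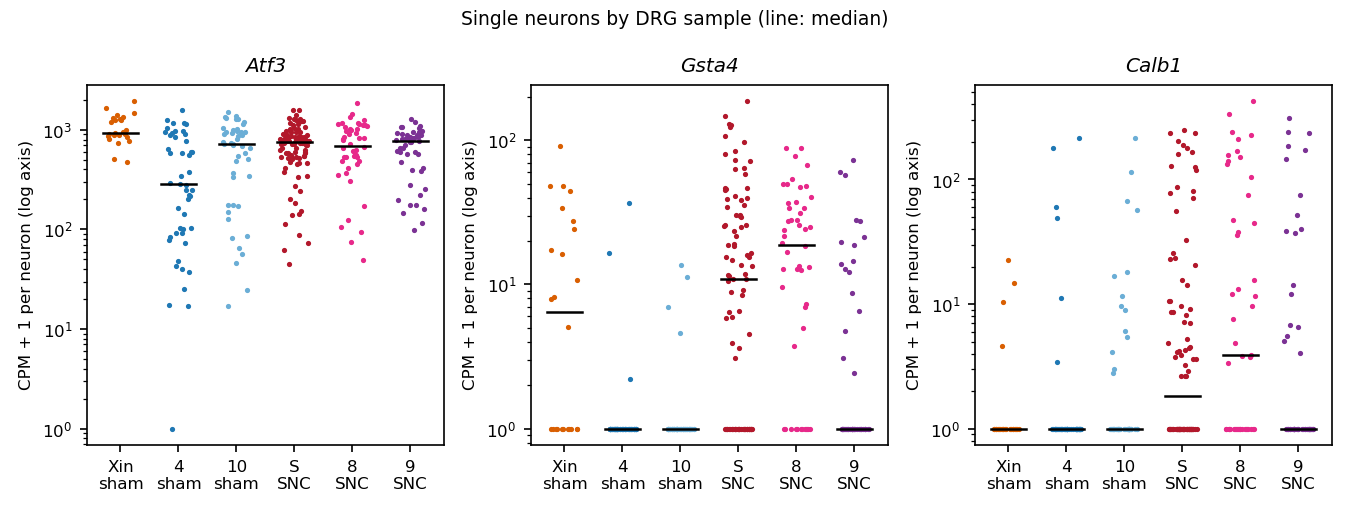
Levels of Atf3, Gsta4 and Calb1 in single neurons (points, CPM + 1 on a log axis) of the 3 sham and 3 SNC 7 d samples, with the median as a line. Atf3 ranges overlap between all samples, with more low neurons in samples 4 and 10. Gsta4 is nearly absent from samples 4 and 10 only, and Calb1 is held by a minority of neurons in the sham samples and by more in the SNC samples.

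Among neuropeptides, galanin (Gal), which injured neurons make in place of other peptides, was at 2599.7 CPM in Xin, 599.6 in sample 4 and 1128 in sample 10, against 1148, 926 and 1301 CPM in S, 8 and 9. The SNC values again lay inside the sham range, with a log2 fold change of -0.36 (0.38 without Xin). Npy, another peptide known to appear in large injured neurons, had 0 UMIs among 80987166 in these 6 samples. By counting error alone this allows at most 0.037 CPM for a count of 3. Of all 16 labelled samples, with SNC samples of every day, 1 held an Npy UMI. Whether the protocol and gene annotation capture Npy transcripts was not tested, so the 0 says nothing about its response to injury. Adcyap1, the gene of the peptide PACAP, was at 397, 155 and 370.4 CPM in sham and 369, 451 and 472 CPM in SNC 7 d (log2 fold change 0.49, standard error 0.32, and 0.72 without Xin). Tac1, the gene of substance P, was at 364, 476 and 805 CPM in sham and 479, 519 and 635 CPM in SNC 7 d. Calca, which encodes CGRP, was at 326 CPM in Xin and at 1094 and 1150.5 CPM in samples 4 and 10, against 716, 686 and 1113 CPM in S, 8 and 9. Ucn, the gene of urocortin, was at 168, 49.2 and 64.9 CPM in sham and at 69.96, 17.7 and 68.5 CPM in SNC 7 d, with a log2 fold change of -0.84 (-0.12 without Xin). Nmb, the gene of neuromedin B, was at 73.1 and 54.0 CPM in samples 4 and 10 and at 7.55 CPM in Xin, against 25.3, 15.8 and 19.8 CPM in S, 8 and 9. Its log2 fold change was -1.16, and -1.63 without Xin. It was named after its values were seen, because Xin again lay nearer to the SNC samples.

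Of the 20 neuropeptide genes, 18 were tested, 6 had a log2 fold change above 0 and 12 below, and the median was -0.093 (0.16 without Xin). Cartpt and Nppb were the 2 that separated the groups without overlap, both higher in SNC 7 d and both at an unadjusted p under 0.05 (2 of 18, beside 4.71% of all genes higher without overlap and 1.76% higher at that p). Cartpt, a peptide precursor, was at 8.11, 16.6 and 11.5 CPM in sham and 27.6, 21.6 and 24.8 CPM in SNC 7 d (log2 fold change 1.01, standard error 0.29, edgeR adjusted p = 0.997). Nppb, the itch peptide of somatostatin neurons, was at 47.0, 19.0 and 54.5 CPM in sham and 57.5, 113 and 79.8 CPM in SNC 7 d (log2 fold change 1.06, standard error 0.40). In Xin, 94.0% of the Nppb UMIs came from a single neuron, and single neurons held 28.8% to 52.3% of them in the other samples.

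Signals that neurons send to other cells were mostly at positive values. Csf1, the growth factor by which injured sensory neurons act on microglia and macrophages, was at 36.4, 8.89 and 43.7 CPM in Xin, 4 and 10 and at 50.2, 74.2 and 60.8 CPM in S, 8 and 9. All 3 SNC samples lay above all 3 sham samples, with means of 61.7 ± 12.0 and 29.7 ± 18.4 CPM (SD, n = 3 each) and a log2 fold change of 1.07 (standard error 0.51, 95% interval -0.11 to 2.24, edgeR adjusted p = 0.997, and 0.701 to 1.00 over the alternatives). The share of neurons with a Csf1 UMI overlapped between groups, at 27.3%, 11.1% and 37.2% in sham and 29.0%, 35.6% and 44.4% in SNC 7 d. Of 12 listed signals 9 were tested and 8 had a log2 fold change above 0, beside 47.8% of all genes, with a median of 0.33 (0.67 without Xin) and 1 member at an unadjusted p under 0.05 (3.00% of all genes). That member was Reg3b, a secreted lectin, at 160.0, 105 and 86.2 CPM in sham and 143, 325 and 162 CPM in SNC 7 d, where S lay inside the sham range. Il6, Ccl2 and Bdnf overlapped between the groups, with log2 fold changes of 0.31, 0.028 and 0.33. Lif, Tnf and Il1b were too low to be tested.

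Receptors for growth factors and cytokines had 9 of 15 tested members above 0 with a median of 0.15, and 4 of 15 lay higher in SNC 7 d without overlap, beside 4.71% of all genes. They were Ntrk2, Egfr, Il31ra and Igf1r. Ntrk2, the receptor TrkB for BDNF, was at 21.0, 14.5 and 11.4 CPM in sham and 44.5, 63.3 and 21.1 CPM in SNC 7 d, so that sample 9 lay just above Xin (log2 fold change 1.48, standard error 0.42, edgeR adjusted p = 0.997). Il31ra, the receptor of the itch cytokine IL-31, was at 11.2, 5.39 and 14.1 CPM in sham and 17.7, 14.2 and 21.3 CPM in SNC 7 d. Egfr was at 7.55, 2.96 and 7.12 CPM in sham and 11.8, 8.03 and 11.3 CPM in SNC 7 d. Igf1r differed least, at 9.33 to 9.87 CPM in sham and 10.8 to 13.5 CPM in SNC 7 d. Ret, the receptor of GDNF-family ligands, overlapped between the groups, at 95.3 to 119 CPM in sham and 105 to 159.9 CPM in SNC 7 d.

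Ion channels set the firing of sensory neurons. Of 28 sodium, potassium, calcium and HCN channel genes listed, 26 were tested, 17 had a log2 fold change above 0 and 9 below (14 and 12 without Xin), and the median was 0.16 (0.016 without Xin). In 1 of the 26 the SNC samples lay above all sham samples and in 1 below, beside 4.71% and 4.36% of all genes. The higher one was Hcn3, a subunit of HCN pacemaker channels named after its values were seen, at 1.68, 1.62 and 1.72 CPM in sham and 2.16, 2.99 and 3.27 CPM in SNC 7 d (log2 fold change 0.74, and 0.74 without Xin). Scn10a, the sodium channel Nav1.8 of nociceptors, was at 64.3, 98.0 and 118 CPM in sham and 71.0, 63.7 and 97.9 CPM in SNC 7 d (log2 fold change -0.28, standard error 0.25). Kcnk18, the potassium channel TRESK that holds nociceptors near rest, was the lower one. It was at 17.6, 23.2 and 21.8 CPM in Xin, 4 and 10 (63, 259 and 266 UMIs) and at 5.65, 4.01 and 8.78 CPM in S, 8 and 9 (173, 51 and 110 UMIs). Every SNC sample lay below every sham sample, with means of 6.15 ± 2.42 and 20.9 ± 2.92 CPM (SD, n = 3 each). The log2 fold change was -1.77 (standard error 0.33, edgeR adjusted p = 0.997, DESeq2 adjusted p = 0.00131) and -1.87 without Xin. A minority of neurons carried it, namely 4 of 24, 17 of 48 and 14 of 47 in sham and 21 of 96, 7 of 48 and 10 of 48 in SNC 7 d at full depth. A single neuron held 54.0%, 34.0% and 53.8% of the Kcnk18 UMIs of Xin, 4 and 10, and 18.5%, 29.4% and 30.9% of those of S, 8 and 9.

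Receptors of heat, irritants, ATP, acid, touch and opioids were mostly at negative values, with 12 of 18 tested members below 0, a median of -0.30 (-0.40 without Xin) and 0 members at an unadjusted p under 0.05 or without overlap. Over all genes 3.00% had such a p, and 4.71% lay higher and 4.36% lower without overlap. Trpv1, the capsaicin receptor, was at 21.5, 38.1 and 84.7 CPM in sham and 38.0, 20.8 and 56.0 CPM in SNC 7 d. Trpa1, the receptor of mustard oil, was at 24.3, 40.1 and 51.8 CPM in sham and 51.3, 30.1 and 50.2 CPM in SNC 7 d. P2rx3, the ATP receptor of C fibres, was at 385, 216 and 218 CPM in sham and 212, 163 and 217 CPM in SNC 7 d.

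Antioxidant defence and stress genes were listed too. Txnrd1, the thioredoxin reductase of the cytosol, was at 359.6, 331 and 359.5 CPM in sham and 395, 432 and 419 CPM in SNC 7 d, without overlap (log2 fold change 0.25, standard error 0.10, edgeR adjusted p = 0.997). The glutathione transferase Gstp1 lay on the other side, at 371, 404 and 358 CPM in sham and 306, 252 and 325 CPM in SNC 7 d (log2 fold change -0.36, standard error 0.13). Gclc, which makes the precursor of glutathione, was at 7.83, 14.0 and 9.33 CPM in sham and 14.4, 19.1 and 14.1 CPM in SNC 7 d. Gpx3, a secreted glutathione peroxidase, was at 11.5, 23.9 and 66.5 CPM in sham and 28.3, 12.5 and 38.0 CPM in SNC 7 d. Mt3, the metallothionein of neurons, was named after its values were seen, since Xin at 122 CPM lay closer to the 189 to 223 CPM of the SNC samples than to the 652 and 399 CPM of samples 4 and 10. Of 19 antioxidant and glutathione genes tested 15 were below 0 with a median of -0.15, and 2 were higher and 3 lower without overlap (4.71% and 4.36% of all genes). Gstm1, another of the lower members, was at 141 to 161 CPM in sham and 128 to 139 CPM in SNC 7 d.

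All 18 cholesterol synthesis genes were tested and 16 had a log2 fold change below 0, with a median of -0.13. Xin was the highest of the 6 samples for 18 of the 18, and without it 13 were above 0 and the median was 0.10. Sc5d, a late enzyme of the pathway, was the 1 member of 18 without overlap (beside 4.36% of all genes lower without overlap), at 272 to 299 CPM in sham and 259 to 269.6 CPM in SNC 7 d. In the unfolded protein and amino acid response, 10 of 15 members were below 0 with a median of -0.049. Ddit3, the stress factor CHOP, was at 117, 128 and 116 CPM in sham and 98.7, 75.9 and 91.9 CPM in SNC 7 d (log2 fold change -0.44, standard error 0.14), and Herpud1, a protein of ER-linked degradation, at 90.7 to 108 and 60.1 to 85.8 CPM.

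Immediate early and heat shock genes had 12 of 14 tested members below 0, with a median of -0.46, and -0.10 without Xin. Fosb, a partner of Jun, was at 129, 43.1 and 46.6 CPM in sham and 30.4, 16.4 and 34.0 CPM in SNC 7 d, with a log2 fold change of -1.42 (standard error 0.47) and -0.73 without Xin. Fos, which marks recent activity, was at 326 CPM in Xin, 91.6 and 125 in samples 4 and 10 and 76.4 to 94.0 CPM in SNC 7 d. Hspa8, a constant chaperone, was at 845 to 1283 CPM in sham and 727 to 836 CPM in SNC 7 d, without overlap. Synaptic release genes were split evenly, with 8 of 16 above 0 and a median of -0.0043. The study lists genes shared between its co-expression modules Tan and Greenyellow and the markers of its peptidergic clusters PEP1, PEP2 and PEP3. It reports both modules as higher 7 days after injury in crushed PEP1 neurons, whereas neurons of all classes and both branches are pooled here. Of the 10 listed for Tan, 8 were above 0 with a median of 0.10 (9 and 0.16 without Xin). Of the 3 listed for Greenyellow, 1 was above 0 with a median of -0.21 (2 and 0.026 without Xin). These are not the whole modules, and as the study chose both sets on these samples, their direction is not independent evidence.

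**Figure D3:**
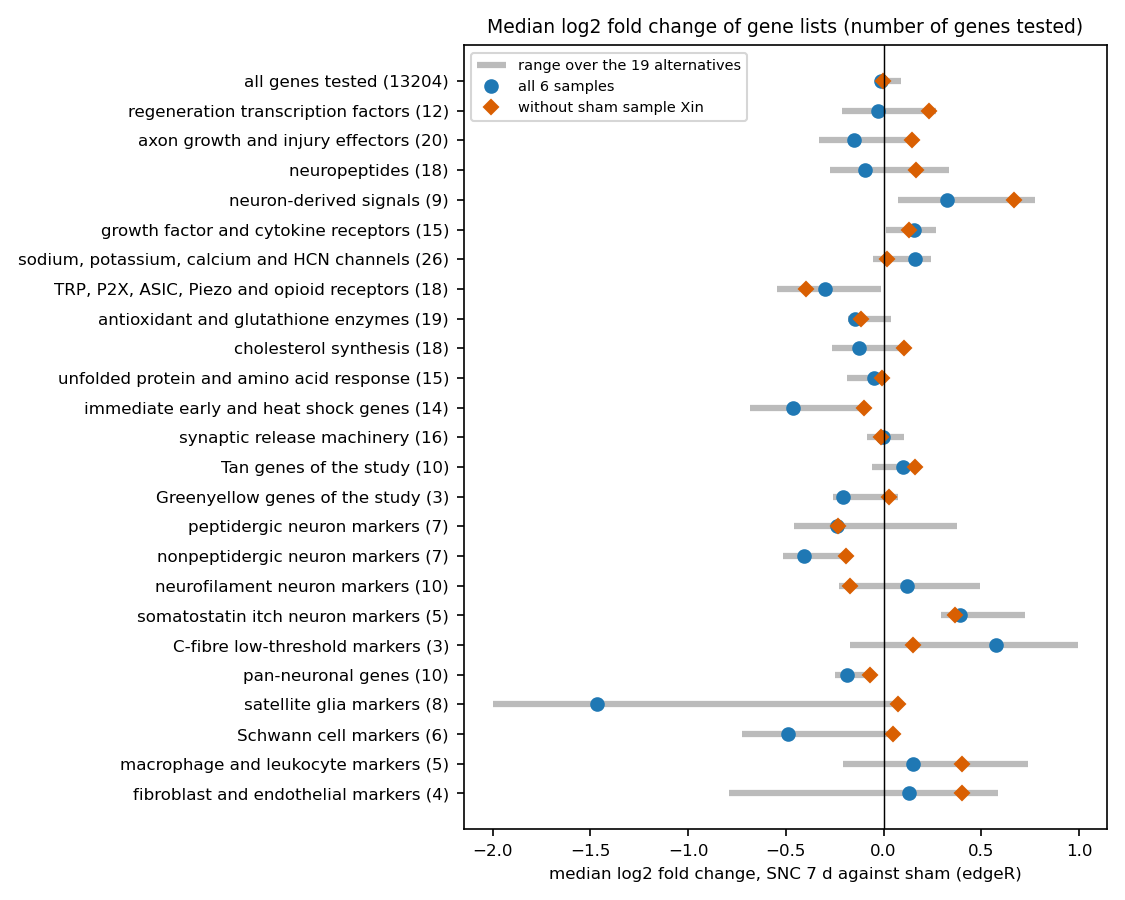
Median log2 fold change (edgeR, SNC 7 d against sham) of the gene lists with at least 3 genes tested, with all 6 samples (circles), without sham sample Xin (diamonds) and as the range over the 19 alternatives (bars). The medians of the transcription factors, effectors, neuropeptides and cholesterol genes are among those that change sign when Xin is left out, the satellite glia median goes from -1.47 to 0.076, and the median of all 13204 genes stays near 0.

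Marker genes of neuron classes were summed per sample, and such a sum follows both the mix of neurons and the level per neuron. The nonpeptidergic markers summed to 1173, 848 and 876 CPM in sham and 774, 719 and 747 CPM in SNC 7 d, without overlap (exact permutation p = 0.1, the smallest possible), and most of this sum was Scg3, a granin of secretory vesicles, at 534 to 716 CPM in sham and 474 to 484 CPM in SNC 7 d. Mrgprd, the defining receptor of this class, was too low to be tested. At full depth Scg3 was found in 24 of 24, 48 of 48 and 46 of 47 neurons of Xin, 4 and 10. In S, 8 and 9 it was found in 96 of 96, 48 of 48 and 48 of 48 neurons, so Scg3 did not mark a class here. The peptidergic sum was 1389, 2393 and 2952 CPM in sham and 1985, 2012 and 2741 CPM in SNC 7 d. The neurofilament sum was lowest in Xin at 2225 CPM, and it was 3380.2 and 4702 CPM in the other sham samples and 3132, 4699 and 3238 CPM in SNC 7 d. Pvalb, the marker of proprioceptive neurons, was at 0 in Xin, 95.1 CPM in sample 4 and 29.2 in sample 10, and at 3.79, 57.0 and 1.68 CPM in S, 8 and 9, so its level differed between samples of 1 group. Somatostatin itch markers summed to 126 to 216 CPM in sham and 176 to 239.8 CPM in SNC 7 d (exact permutation p = 0.2), C-fibre low-threshold markers to 30.2 to 65.2 and 24.6 to 65.4 CPM (exact permutation p = 0.9). Median log2 fold changes of the class lists were -0.24 for peptidergic (-0.23 without Xin), -0.41 for nonpeptidergic (-0.19 without Xin) and 0.39 for somatostatin itch markers (0.37 without Xin). The neurofilament median was 0.12 and turned to -0.17 without Xin, where 3 of 10 markers were above 0. The C-fibre low-threshold median was 0.57, and 0.15 without Xin. Rbfox3, the nuclear antigen NeuN, was at 249.6 to 270.0 CPM in sham and 165 to 226 CPM in SNC 7 d without overlap, and 10 of the 10 pan-neuronal genes were below 0 with a median of -0.18 (-0.071 and 7 of 10 without Xin).

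Markers of other cells did not separate the groups. Schwann cell markers summed to 1280 to 1618 CPM in sham and 1221 to 1630.4 CPM in SNC 7 d, of which Pmp22 and S100b were the most abundant. Macrophage and leukocyte markers summed to 16.8 to 38.9 CPM in sham and 24.8 to 60.2 CPM in SNC 7 d (exact permutation p = 0.2), with 5 of 10 too low to be tested. Fibroblast and endothelial markers stayed at or below 10.1 CPM and blood markers at or below 5.35 CPM in every sample. The median log2 fold change of satellite glia markers was -1.47, and 0.076 without Xin, and that of Schwann cell markers was -0.49, and 0.048 without Xin. Cd53, a leukocyte tetraspanin named after its values were seen, was at 13.6 and 13.1 CPM in samples 4 and 10, 0.56 in Xin and 1.73, 0.47 and 1.84 CPM in S, 8 and 9.

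Genes were also ranked over all genes tested. With an unadjusted p under 0.01, groups that did not overlap and 20 CPM or more as the mean of a group, 21 genes were higher and 7 lower in SNC 7 d, all with an edgeR adjusted p of 0.997. Among the 10 higher genes of lowest p were, in order of p, Maob, Tsen34l1, Gpr158, Calb1, Gda, Kitlg, Lgi2, Rab9a and Opn3. Maob, the monoamine oxidase B, was at 5.59, 6.46 and 7.04 CPM in sham and 29.5, 39.4 and 12.6 CPM in SNC 7 d (log2 fold change 2.08, standard error 0.42). Calb1, the calcium buffer calbindin, was at 2.24, 7.99 and 17.1 CPM in Xin, 4 and 10 and at 43.3, 93.9 and 44.5 CPM in S, 8 and 9 (log2 fold change 2.65, standard error 0.61). At full depth a Calb1 UMI was present in 4 of 24, 6 of 48 and 14 of 47 sham neurons and in 48 of 96, 27 of 48 and 18 of 48 SNC neurons, and single neurons held 42.1% to 74.2% of the sham UMIs and 19.0% to 23.0% of those in SNC samples.

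Lgi2, a secreted protein of synapses, was at 28.0, 52.3 and 23.4 CPM in sham and 76.1, 139 and 72.1 CPM in SNC 7 d. Gda, guanine deaminase, was at 34.7, 42.9 and 42.5 CPM in sham and 85.3, 155 and 62.0 CPM in SNC 7 d. Kitlg, the ligand of the receptor Kit, was at 59.0, 82.4 and 78.4 CPM in sham and 105, 133 and 118 CPM in SNC 7 d (log2 fold change 0.69, standard error 0.17). Tsen34l1 was at 34.2 to 41.7 and 54.6 to 71.9 CPM, the receptor gene Gpr158 at 19.3 to 21.7 and 32.5 to 38.2 CPM, the GTPase gene Rab9a at 93.6 to 107 and 130.1 to 151 CPM, and the opsin gene Opn3 at 19.1 to 26.9 and 34.3 to 48.9 CPM. In 15 of the 21 higher genes sample 8 held the highest level, and in 10 sample S held the lowest of the 3 SNC levels.

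The 7 lower genes were Kcnk18, S100a6, Rnf182, Crip1, Itm2c, Vstm5 and Trappc6a. S100a6, the calcium-binding protein calcyclin, was the most abundant of them, at 834, 705 and 692 CPM in sham and 482, 357 and 499 CPM in SNC 7 d (log2 fold change -0.74, standard error 0.16). Itm2c, a membrane protein of neurons, was at 263, 198 and 222 CPM in sham and 154, 138 and 175 CPM in SNC 7 d (log2 fold change -0.54, standard error 0.15). Crip1, a LIM-domain protein, was at 77.2, 108 and 125 CPM and 62.8, 53.0 and 68.6 CPM. Rnf182, a ubiquitin ligase, was at 24.1 to 33.0 CPM in sham and 10.8 to 19.0 CPM in SNC 7 d, Vstm5 at 53.1 to 77.0 and 38.2 to 46.3 CPM, and the trafficking gene Trappc6a at 74.5 to 87.8 and 48.4 to 62.9 CPM.

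**Figure D4:**
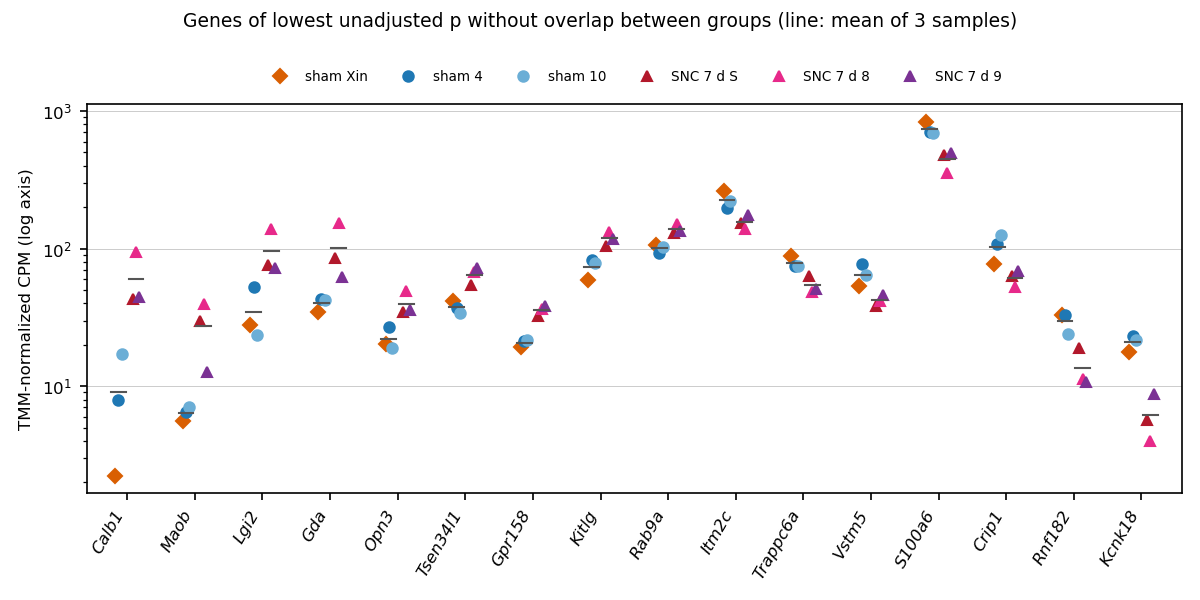
Levels of 9 higher and 7 lower genes of lowest unadjusted p, as TMM-normalized CPM on a log axis, in sham samples (Xin as diamonds, 4 and 10 as circles) and SNC 7 d samples (triangles), with short lines for the means of 3 samples. The groups do not overlap because the genes were chosen for that, and Calb1, Maob, Lgi2 and Gda are highest in sample 8.

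DESeq2 called 11 genes at an adjusted p of 0.05, 5 higher and 6 lower in SNC 7 d, of which Calb1, Kcnk18 and Maob are described above. The other genes were sparse. Krt8, an epithelial keratin, was at 0.45 to 0.66 CPM in sham (2, 5 and 8 UMIs) and at 10.8, 28.1 and 7.34 CPM in S, 8 and 9, and was the 1 gene edgeR called when no filter on low counts was used (log2 fold change 4.78, edgeR adjusted p = 0.0431). A single neuron held 43.6%, 57.4% and 80.4% of the Krt8 UMIs of S, 8 and 9. S100a16, a calcium-binding protein, was at 20.1, 12.7 and 11.2 CPM in sham and 1.21, 2.20 and 2.00 CPM in SNC 7 d, and a single neuron held 98.6%, 73.9% and 92.7% of its UMIs in Xin, 4 and 10. Prl8a5, a prolactin-family gene, had 1 UMI in all sham neurons and 67, 85 and 123 UMIs in S, 8 and 9, spread over 3, 5 and 1 neurons. Mrgprx4, a receptor of the itch family, was at 3.11 to 5.21 CPM in sham and 0.48 to 0.87 CPM in SNC 7 d, and Htr5b, a serotonin receptor, at 2.80 to 5.57 and 0.31 to 0.82 CPM. In Xin, 4 and 10 a single neuron held 92.9%, 46.6% and 26.3% of the Mrgprx4 UMIs. For Htr5b a single neuron held 80.0%, 87.1% and 89.7% of them. Ephx1, an epoxide hydrolase, was at 7.55, 20.6 and 9.91 CPM in sham and 1.86, 2.12 and 2.47 CPM in SNC 7 d, and Id3, an inhibitor of DNA binding, at 11.3 to 15.1 and 2.12 to 4.71 CPM. LOC689757 was at 0.99 to 1.96 and 4.56 to 17.9 CPM.

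The same contrast in the libraries reverse-transcribed in 2020, with 1 sham sample (18) and 2 SNC 7 d samples (19-1 and 19-2), allows the values to be set side by side. The labels give 48 directly and 48 indirectly injured neurons for sample 18, but 20 directly and 4 indirectly injured neurons for 19-1 and the reverse for 19-2, so the later SNC samples are not mixed as the earlier ones were. Samples 19-1 and 19-2 shared a day of reverse transcription, and whether they are separate rats is not given. In the later year Atf3 was at 462 CPM in sham and 359.96 and 491 CPM in SNC 7 d. Gap43 was at 1364 CPM in sham and 1059 and 1525 CPM in SNC 7 d, and Csf1 at 38.1 CPM and 16.7 and 23.1 CPM. Gsta4 was at 14.2 CPM in sham sample 18 and at 20.2 and 31.0 CPM in 19-1 and 19-2, so that among the 4 sham samples only 4 and 10 were near 1 CPM. Of the 21 genes higher in SNC 7 d in the earlier year, 2 had both later SNC samples above the later sham sample and 12 had both below. Of the 7 lower genes 2 had both below and 2 both above. Over all 13190 genes tested in both years, 25.8% had both later SNC samples above and 34.3% both below. Calb1 was at 24.4 CPM in sham sample 18 and 27.4 and 6.92 CPM in 19-1 and 19-2, and Kcnk18 at 11.8 CPM and 1.13 and 15.7 CPM. Among the other genes DESeq2 called, Maob, Krt8, Prl8a5, Ephx1 and Htr5b had both later SNC samples on the opposite side of sham. Maob was at 27.7 CPM in sample 18 and 11.8 and 2.68 CPM in 19-1 and 19-2, and Ephx1 at 12.3 CPM and 38.5 and 14.1 CPM. Id3 and LOC689757 had both on the same side as in the earlier year, and S100a16 and Mrgprx4 had 1 on each side. The test of the difference between years called 1 of 13190 genes (0.00758%), Dstn, with edgeR adjusted p = 0.0403, and the next lowest adjusted p among the genes named by rule was 0.171, for Prl8a5.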

How the data were processed

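Single DRG neurons of sham and SNC rats had been sequenced with a modified Smart-seq2 protocol with UMIs. The authors aligned reads to Rnor_6.0 (STAR), counted them per gene (featureCounts of Subread, SAMtools) and removed duplicate UMIs (UMI-tools), by the submitters' processing notes, which give no versions. They deposited whole, unnormalized UMI counts per gene and cell. A gene name table was not used. The 32881 genes shared by all files were kept. Amplified UMIs are not free of error, and intervals and limits cover counting error only.

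Counts of neurons that passed were summed per DRG sample in pandas 2.3.3 and NumPy 2.4.6 (SciPy 1.17.1 for tests, Python 3.11.15). They were tested in R 4.3.3 with edgeR 4.0.16 (TMM, filterByExpr, quasi-likelihood test, two-sided, Benjamini-Hochberg adjustment, called at 0.05). DESeq2 1.42.0 and limma 3.58.1 served as alternatives, and matplotlib 3.10.9 drew the figures. The fits were tested on simulated data. Single values were compared by exact permutation over samples. Doublets were not called, since neurons had been picked by hand. No 2 cells held the same values, and the chi-square per degree of freedom between samples within a group was 13.0 to 36.7, above the sampling noise of 1. P-values measure the spread between these samples, which the labels do not tie to single rats.

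The members of this comparison and the 25 gene lists were chosen with earlier results of these data known. Genes were named by rule: 22 anchor genes, from each list up to 4 genes with at least 10 CPM and no overlap of the groups, and up to 10 genes in each direction with the lowest unadjusted p under 0.01, at least 20 CPM and no overlap, since no gene passed the adjusted threshold. Genes called by an alternative, genes of the year test, and further list members (such as Reg3b, Il6, Ccl2, Bdnf, Ret, P2rx3, Fos and Pvalb) were added after their values were seen. Some genes the rule names are not reported here. The alternatives were other tools, scalings, filters, weights of cells, sample sets, date and year terms, thinned cells, other thinning depths and other pseudocounts.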

Additional observations from a re-analysis of the deposited data

Results flagged for a closer look

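Dstn, the gene of the actin-severing protein destrin, was singled out because its SNC 7 d effect differed between the years of reverse transcription in a test of the difference itself. The later effect minus the earlier one was -2.42 on the log2 scale (standard error 0.23, edgeR adjusted p = 0.0403, and 0.000722 with no filter on low counts). In the earlier year Dstn was at 334, 379 and 375 CPM in sham samples Xin, 4 and 10 and at 340.3, 390.2 and 297 CPM in SNC samples S, 8 and 9. In the later year it was at 376 CPM in sham sample 18 and at 71.95 and 61.7 CPM in SNC samples 19-1 and 19-2, so both later SNC samples lay below all 7 others. The later year has 1 sham sample, whose spread was taken from the other groups, and its SNC samples hold unequal numbers of directly and indirectly injured neurons. Samples 19-1 and 19-2 were also reverse-transcribed on the same day, and the labels do not say whether they came from separate rats. The test of the difference counted them as 2 samples.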

How the results depend on the processing

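The count of 0 called genes held in 17 of 19 alternatives, while DESeq2 called 11 genes and edgeR without a filter on low counts called 1 (Krt8). It stayed 0 with each sample left out in turn, where the genes at an unadjusted p under 0.05 numbered 185 without sample 8 and 923 without Xin. By the study's dates, samples 4 and 8, and 10 and 9, shared a day of reverse transcription, and Xin and S a sequencing date. Samples 4, 8, 9 and 10 all shared the other sequencing date. Deviations from the group means correlated by 0.299, 0.0302 and 0.164 within the pairs 4 and 8, 10 and 9, and Xin and S. They correlated by -0.279 to 0.157 in the other pairs of a sham and an SNC sample, most of them below 0. Those other pairs include 4 with 9 and 10 with 8, which shared a sequencing date. As deviations from a group mean cancel within the group, values above 0 in some pairs are balanced by values below 0 in others. The main fit had no term for the dates, and whether samples of a date share an effect was not tested. The replicate block by these dates called 0 genes, with 508 at an unadjusted p under 0.05. The year test called 2 genes (Dstn and Prl8a5) with no filter.

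No named gene passed in edgeR, so a change of sign below is a change of a value within its error, and the cause was not tested. Without Xin and S, log2 fold changes were 0.50 for Atf3, 0.34 for Jun, 0.089 for Stat3, 0.15 for Gap43, 0.23 for Ecel1, 0.37 for Gal, 0.84 for Arg1 and -0.19 for Trpa1. With the mean of single-cell CPM they were 0.039 for Atf3, 0.0028 for Jun, 0.37 for Tac1, 0.51 for Calca, 0.020 for Scn10a, 0.30 for Trpv1, 0.32 for Arg1 and 0.0583 for Gpx3. With the replicate block by date they were 0.0487 for Atf3, 0.0575 for Tac1, 0.13 for Calca and 0.27 for Arg1, and with the sequencing date as a term 0.033, 0.029, 0.15 and 0.13. Thinned cells gave 0.26 for Tac1, 0.22 for Calca, 0.025 for Cd9, 0.081 for Trpv1 and 0.16 for Arg1. Without glia-rich cells Tac1 was at 0.25, Calca at 0.11 and Cd9 at 0.12, and with all mitochondrial genes in the cell filter Tac1 was at 0.0490 and Calca at 0.046. With no filter Tac1 was at 0.00091. Sprr1a was at -0.012 with DESeq2, -0.00349 with its size factors, -0.013 with S-2 and S-3 apart and -0.12 with both years. Trpa1 was at -0.12 with both years and -0.12 with 16 samples, and Arg1 at 0.072 with 16 samples. The share of neurons with Sox11 differed by 14.3 percentage points at 50000 UMIs.

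With each sample left out in turn, log2 fold changes ran from -0.39 to 0.45 for Atf3, -0.49 to 0.30 for Jun, -0.077 to 0.65 for Sox11, -0.29 to 0.062 for Stat3, -0.32 to 0.084 for Gap43, -0.40 to 0.66 for Sprr1a, -0.82 to 0.25 for Ecel1, -0.72 to 0.38 for Gal, -0.23 to 0.38 for Tac1, -0.42 to 0.24 for Calca, -0.72 to 0.35 for Trpv1, -0.062 to 0.44 for Trpa1, -0.60 to 0.71 for Arg1, -0.78 to 0.56 for Gpx3 and -0.18 to 0.014 for Dstn. Differences of shares ran from -8.34 to 9.94 percentage points for Sox11, -0.295 to 1.93 for Jun and -11.2 to 3.03 for Ecel1. Other pseudocounts moved no level by more than the spread between samples.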
